A study of Mus musculus with 6 samples.

Results

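The integrin chains and the core proteins of focal adhesions were followed in mouse 4T1 mammary carcinoma cells. The genes were chosen by symbol, with earlier results of these data known, so their direction is no independent evidence. All integrin α chains (18 genes) and β chains (9 genes) in the table were taken, together with 15 genes of the focal adhesion core, which made 42 of 22105 genes with an identifier. One group of 3 libraries (nanoparticle) came from 4T1 cells kept for 24 h with CM-PEG-PLGA@DOX/R848 particles, whose dose matched 2 µg/mL doxorubicin. The other group of 3 libraries (PBS) came from 4T1 cells given phosphate-buffered saline over the same time. The particles carried doxorubicin, which poisons topoisomerase II, and R848 (resiquimod), an agonist of TLR7 and TLR8. Both groups are 1 cell line, no free drug or empty particle was analysed here, and the labels do not tell whether replicate libraries are separate cultures. The p-values therefore cover the spread among these libraries alone, which may be technical.

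Integrins are heterodimers of an α and a β chain that span the plasma membrane and hold cells to matrix proteins or to other cells. Talin and kindlin bind the short cytoplasmic tail of the β chain and switch the receptor on. The ILK-PINCH-parvin complex, vinculin and α-actinin then tie it to actin filaments, and FAK, SRC, paxillin and p130Cas pass on the signal. In mammary epithelium, laminin receptors such as α3β1 and α6β4 anchor cells to the basement membrane, and αvβ3 and α5β1 bind the RGD motif of vitronectin, osteopontin or fibronectin.

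Levels are FPKM (fragments per kilobase of transcript, scaled to the library's mapped fragments). This unit is per length, so levels of different genes can be set side by side. Of the 42 genes, 27 reached 1 FPKM in at least 3 of 6 libraries and were tested, and each of the 27 was at 1 FPKM or more in every library. A gene was called at an adjusted p under 0.05 (limma on log2(FPKM + 1), Benjamini-Hochberg over all 10863 tested genes). In this comparison 86.4% of all tested genes were called, 40.5% as higher and 46% as lower with nanoparticles. Among the 27 genes followed here 92.6% were called, 5 as higher (18.5%) and 20 as lower (74.1%), and 10 (37%) were lower by at least 2-fold on the log2(FPKM + 1) scale, against 13.5% of all tested genes. Where a smooth trend of level with genomic span and exonic length was taken out of each library (span adjustment), 5 of the 27 (18.5%) were lower by at least 2-fold, against 8.97% of all genes so tested. One gene, Itga7, was higher by at least 2-fold, as were 10.2% of all tested genes. The libraries of both groups did not overlap for 25 of the 27 genes, a share close to the 87.2% of all tested genes. Their median log2 fold change was -0.49, beside -0.06 over all tested genes.

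Of the epithelial markers of the labelled line, Krt8 and Krt18 were abundant, while Epcam, Krt14, Cldn7 and Esrp1 stayed under 1 FPKM in every library. Of 12 epithelial markers 8 were tested, of which 5 rose, 2 fell and 1 did not pass. Over all tested genes 40.5% rose and 46% fell. After span adjustment 3 of these markers were called higher and 4 lower, beside 4071 higher and 5041 lower of 10836 genes so tested. Krt8 averaged 343 ± 0.924 FPKM with nanoparticles and 215 ± 2.58 FPKM with PBS, and Krt18 averaged 685 ± 22.7 FPKM with nanoparticles and 514 ± 6.33 FPKM with PBS (SD, n = 3 each). Their log2 fold changes of 0.67 for Krt8 and 0.41 for Krt18 were 0.27 and -0.06 after span adjustment. Ocln, a tight junction protein, fell to 5.76 ± 0.488 FPKM with nanoparticles, against 13.6 ± 0.992 FPKM with PBS. Epcam ranged from 0.477 to 0.738 FPKM with nanoparticles and from 0.436 to 0.754 FPKM with PBS. Summed FPKM over all features was 468387 to 472870 in nanoparticle libraries and 421544 to 425231 in PBS libraries. Genes above 0 numbered 18319 to 18509 in nanoparticle libraries and 13544 to 13808 in PBS libraries.

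**Figure D1:**
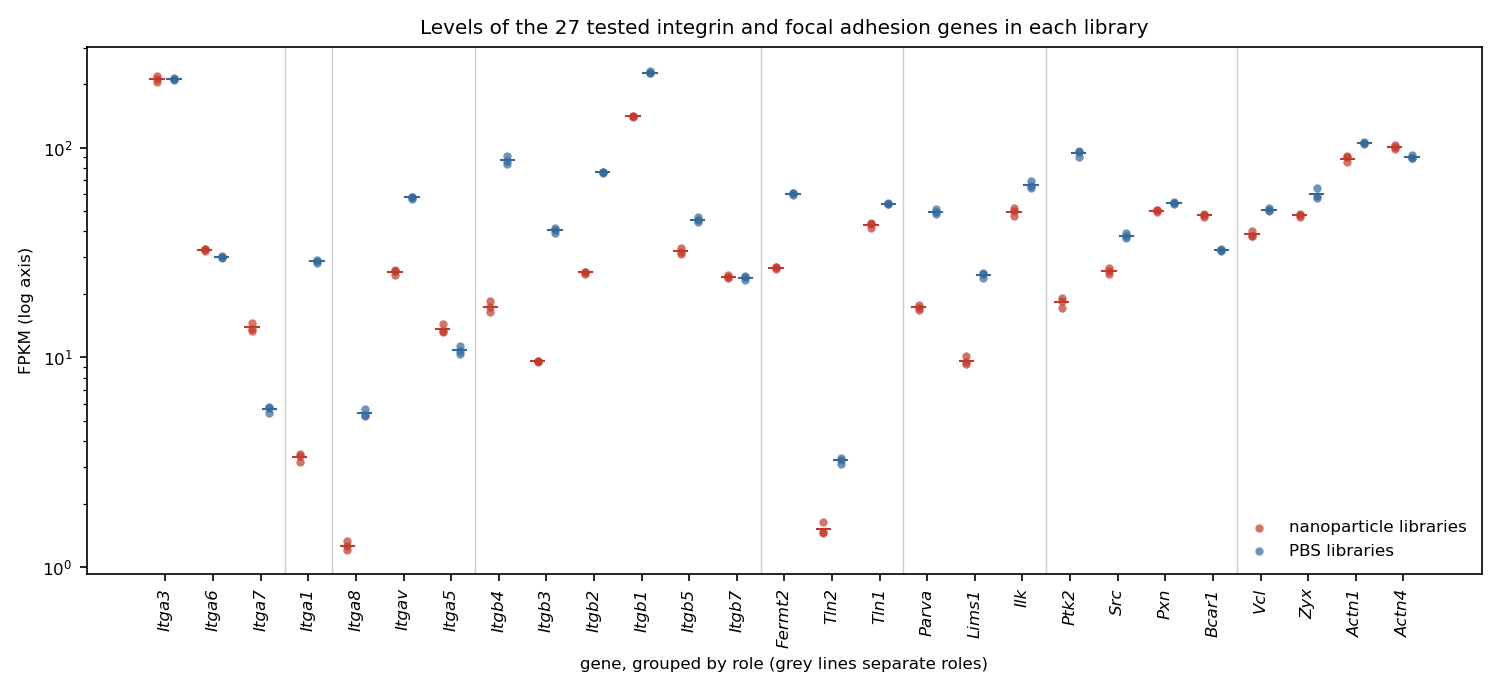
FPKM (log axis) of the 27 tested genes in each library, nanoparticle points left of PBS points, with a line at each group mean and grey lines between roles. Itga1, Itga8, Itgb3, Itgb4 and Ptk2 sit lowest relative to PBS, Itga7 sits above PBS, and the points of Itga3 and Itgb7 overlap.

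All tested β chains except Itgb7 fell. Of 9 β chains 6 were tested, of which 5 fell (83.3%), 0 rose and 1 did not pass, where 46% of all tested genes fell. Itgb4, whose long tail links α6β4 to the hemidesmosome, stood at 17.4, 18.5 and 16.4 FPKM in the nanoparticle libraries, against 90.7, 83.6 and 86.5 FPKM in the PBS libraries. Every nanoparticle library was below every PBS library, and the mean was 4.99-fold lower (log2 fold change -2.25 with a standard error of 0.047, limma adjusted p = 1.61e-10). Itgb3, the partner of αv in the vitronectin receptor, stood at 9.49, 9.64 and 9.56 FPKM with nanoparticles, against 41.2, 40.6 and 39.3 FPKM with PBS. It was 4.22-fold lower, again without overlap (log2 fold change -1.97 with a standard error of 0.036, limma adjusted p = 7.54e-11).

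Itgb1, the most abundant β chain and the shared partner of most α chains, measured 142, 140 and 142 FPKM in the nanoparticle libraries, against 232, 226 and 226 FPKM in the PBS libraries. The groups did not overlap and the mean was 1.61-fold lower (log2 fold change -0.68, adjusted p = 3.93e-09, limma). Itgb5, another partner of αv, was 31.8, 31.1 and 33.2 FPKM with nanoparticles and 44.2, 45.4 and 46.6 FPKM with PBS, a log2 fold change of -0.49 that became 0.26 after span adjustment. Itgb7 was 24.7, 23.8 and 24.1 FPKM with nanoparticles, beside 24.3, 23.4 and 24.2 FPKM with PBS. Its groups overlapped and it did not pass (log2 fold change 0.01 with a standard error of 0.035, limma adjusted p = 0.724), though it was lower by either of 2 other processings (-0.14 on the TPM scale and -0.29 after span adjustment).

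Itgb2, the β chain of the leukocyte integrins, was well above the floor in this carcinoma line. It measured 24.9, 25.6 and 25.6 FPKM with nanoparticles, against 76.8, 76.8 and 75.7 FPKM with PBS, with no overlap. It fell 3.01-fold (log2 fold change -1.55 with a standard error of 0.028, limma adjusted p = 7.41e-11). Its 4 α partners were near the floor. Itgal averaged 0.158 FPKM with nanoparticles and 0.0379 FPKM with PBS, and Itgam, Itgax and Itgad averaged 0.14 FPKM or less in either group. Itgam shares 68.7% of its exonic bases with Gm49368 on the same strand, so its low value is uncertain. Gm49368 averaged 0.193 FPKM with nanoparticles and 0 FPKM with PBS. The leukocyte marker list was low too. Of 18 markers 15 never reached 1 FPKM, of which 14 had the higher mean with nanoparticles, as did 74% of all untested genes. The list summed to 16.2 to 19.2 FPKM with nanoparticles and 24.6 to 31.1 FPKM with PBS.

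Ptprc, the pan-leukocyte gene for CD45, ranged from 0.389 to 0.612 FPKM in the nanoparticle libraries and was 0 in all PBS libraries. Nkg7 was 0 in all 6 libraries. S100a8, a calcium-binding protein of neutrophils that carcinoma cells can also make, gave most of that sum. It averaged 12 ± 1.21 FPKM with nanoparticles and 26.7 ± 3.33 FPKM with PBS (SD, n = 3 each, adjusted p = 1.10e-05, limma), a log2 fold change of -1.09 that was -1.75 after span adjustment. Csf1r, a macrophage growth factor receptor, averaged 1.45 ± 0.36 FPKM with nanoparticles and 0.0416 ± 0.0125 FPKM with PBS. Coro1a, an actin-binding protein of leukocytes, averaged 1.45 ± 0.226 FPKM with nanoparticles and 0.822 ± 0.0257 FPKM with PBS, and its call was lost after span adjustment (log2 fold change 0.05). No PBS library reached 1 FPKM for Csf1r or Coro1a, so these genes could pass the filter in 1 direction only. The part of leukocyte RNA in the Itgb2 change was not tested. In these bulk samples, fewer cells of a type and less RNA per cell cannot be told apart.

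The α chains moved in both directions. Of 18 α chains 7 were tested, of which 3 fell (42.9%), 3 rose (42.9%) and 1 did not pass. These shares were near the 46% lower and 40.5% higher of all tested genes. The largest fall of all 27 tested genes was that of Itga1, the collagen receptor chain, which stood at 3.46, 3.16 and 3.4 FPKM with nanoparticles, against 28.7, 29 and 28.3 FPKM with PBS. The groups were far apart, and the mean was 8.58-fold lower (log2 fold change -2.77 with a standard error of 0.046, limma adjusted p = 4.46e-11; -1.80 after span adjustment). Itga1 lies at GRCm38 chromosome 13, 114953096 to 115101964, a span of 149 kb. Itga10 and Itga2, which also bind collagen, averaged 0.796 and 0.379 FPKM with nanoparticles, beside 1.11 and 0.563 FPKM with PBS. Itga10 came nearest to the 1 FPKM filter without passing it, with 2 PBS libraries above 1 FPKM. It shares 33.5% of its exonic bases with Gm42957 on the same strand, so its value is uncertain.

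Among the RGD-binding chains, Itgav and Itga8 fell and Itga5 rose. Itgav, which pairs with several β chains, measured 26.2, 25.9 and 24.8 FPKM with nanoparticles and 57.1, 58.1 and 58.4 FPKM with PBS, a 2.26-fold lower mean with no overlap (adjusted p = 8.97e-10, limma; log2 fold change -1.14, and -0.53 after span adjustment). Itga8 measured 1.26, 1.33 and 1.21 FPKM with nanoparticles and 5.7, 5.33 and 5.27 FPKM with PBS, 4.3-fold lower (log2 fold change -1.51, and -0.46 after span adjustment). Itga5, the fibronectin receptor chain, measured 13.4, 14.5 and 13.2 FPKM with nanoparticles and 11.3, 10.4 and 10.7 FPKM with PBS. It was 1.27-fold higher without overlap (log2 fold change 0.32 with a standard error of 0.051, limma adjusted p = 2.22e-04), a call that ended after span adjustment (log2 fold change 0.11, adjusted p = 0.0726, limma).

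Of 13 fibroblast and endothelial markers, 3 were tested and fell, where 46% of all tested genes fell, and 10 never reached 1 FPKM. The 3 were Pdgfra (4.76 ± 0.344 FPKM with nanoparticles, 20.5 ± 0.255 FPKM with PBS), Cdh5 (1.54 ± 0.141 and 8.42 ± 0.0879 FPKM in the same order) and Pdgfrb (2.9 ± 0.265 and 12 ± 0.095 FPKM). The list summed to 9.95 to 12.2 FPKM in nanoparticle libraries and 41.3 to 41.4 FPKM in PBS libraries. The 10 low markers went the other way, with every nanoparticle library above every PBS library for each. This held for 40.3% of all untested genes. Of the 10, 6 (Col3a1, Dcn, Lum, Thy1, Kdr and Emcn) were 0 in all PBS libraries, in which fewer genes were above 0 as a whole. The means of the 10 markers were at most 0.415 FPKM with nanoparticles and 0.265 FPKM with PBS. The part of such cells in the changes of Itga1 and Itga8 was not tested.

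Of the 3 laminin-binding chains 2 rose and 1 did not pass, where 40.5% of all tested genes rose. Itga3 was the most abundant integrin α chain, at 219, 212 and 206 FPKM with nanoparticles and 214, 211 and 212 FPKM with PBS. The groups overlapped and it did not pass (log2 fold change 0.00 with a standard error of 0.028, limma adjusted p = 0.984), although on the TPM scale it was lower by 0.15 (log2 fold change -0.15). Itga6 measured 32.7, 32 and 32.7 FPKM with nanoparticles and 30.4, 30 and 29.9 FPKM with PBS, a rise of 0.11 on the log2 scale (adjusted p = 0.00851, limma) that became -0.04 on the TPM scale and 0.89 after span adjustment. Itga7, best known as the laminin receptor of muscle, had the largest rise of the 27 genes. It stood at 13.4, 14.6 and 13.7 FPKM with nanoparticles, against 5.43, 5.8 and 5.71 FPKM with PBS, with no overlap. It was 2.46-fold higher (log2 fold change 1.16 with a standard error of 0.051, limma adjusted p = 1.55e-08).

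The bases before the start of 4 integrin genes are shown because these chains moved differently: Itga1 had the largest fall, Itgav and Itgb1 fell less, and Itga5 rose. Each is the 250 bases upstream of the RefSeq start (build GRCm38.p6), 5′ to 3′ on the gene's strand. Capitals mark matches on either strand to 3 motifs, AP-1 (TGANTCA), TEAD (GGAATG) and SP1 (GGGCGG), whose letters did not overlap in these windows.
Itga1, chr13:115101965-115102214, minus strand: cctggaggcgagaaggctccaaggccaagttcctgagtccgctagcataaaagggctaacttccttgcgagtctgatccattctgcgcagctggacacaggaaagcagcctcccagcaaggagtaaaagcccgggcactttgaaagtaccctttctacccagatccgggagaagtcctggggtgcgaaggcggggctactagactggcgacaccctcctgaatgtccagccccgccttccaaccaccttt
Itgav, chr2:83724147-83724396, plus strand: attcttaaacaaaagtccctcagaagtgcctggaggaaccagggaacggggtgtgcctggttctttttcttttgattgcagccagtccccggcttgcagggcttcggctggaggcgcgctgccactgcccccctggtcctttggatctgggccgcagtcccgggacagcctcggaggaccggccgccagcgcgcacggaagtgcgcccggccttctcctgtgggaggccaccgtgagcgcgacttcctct
Itgb1, chr8:128685404-128685653, plus strand: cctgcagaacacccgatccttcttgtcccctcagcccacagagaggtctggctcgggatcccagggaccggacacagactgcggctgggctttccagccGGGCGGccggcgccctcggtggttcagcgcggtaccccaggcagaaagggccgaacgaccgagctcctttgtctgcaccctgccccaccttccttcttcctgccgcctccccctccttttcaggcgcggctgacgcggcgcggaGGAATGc
Itga5, chr15:103366792-103367041, minus strand: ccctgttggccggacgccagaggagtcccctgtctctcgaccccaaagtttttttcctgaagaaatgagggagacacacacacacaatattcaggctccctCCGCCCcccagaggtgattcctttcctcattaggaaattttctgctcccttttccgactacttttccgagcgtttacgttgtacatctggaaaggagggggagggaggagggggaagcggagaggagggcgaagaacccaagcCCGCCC

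The SP1 letters occurred 1 time before Itgb1 and 2 times before Itga5, the TEAD letters 1 time before Itgb1, and none of the motifs was in the Itga1 and Itgav windows. RefSeq entries were found for 30 of the 42 genes, and 14 tested genes had a single start. Of these 14 windows, 9 held the SP1 letters (64.3%), beside 32.7% of 32851 windows of the same length from all genes, 3 held the TEAD letters (21.4%, beside 12.6%) and 2 held the AP-1 letters (14.3%, beside 6.75%). The SP1 letters stood before 7 of 11 genes that fell and before both genes that rose. These matches describe letters in a short window, and say nothing about binding.

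The make-up of the integrin RNA pool shifted with these changes. Shares are given within a library, which the scaling of that library does not alter. Itgb1 made up 56.7, 56.3 and 56.6% of the summed β-chain FPKM with nanoparticles, against 45.6, 45.6 and 45.3% with PBS. Itgb4 made up 6.93, 7.42 and 6.52% of it with nanoparticles and 17.8, 16.9 and 17.4% with PBS. The Itgb1 share was thus higher in every nanoparticle library although its level was lower. Itga3 made up 70.1, 69.4 and 69.2% of the summed α-chain FPKM with nanoparticles, against 60.2, 59.9 and 60.1% with PBS, while Itgav made up 8.41, 8.45 and 8.33% with nanoparticles and 16.1, 16.5 and 16.6% with PBS. Itga1 made up 1.09 ± 0.056% with nanoparticles and 8.11 ± 0.111% with PBS (SD, n = 3 each). The shares of Itgb4, Itga3 and Itga1, the chain sums and the ratio of Itga6 to Itgb4 were added after the values had been seen. None of the shares given overlapped between groups; with 3 libraries against 3 the exact two-sided permutation test cannot go below 0.1, and it gave 0.1 for each of them.

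**Figure D2:**
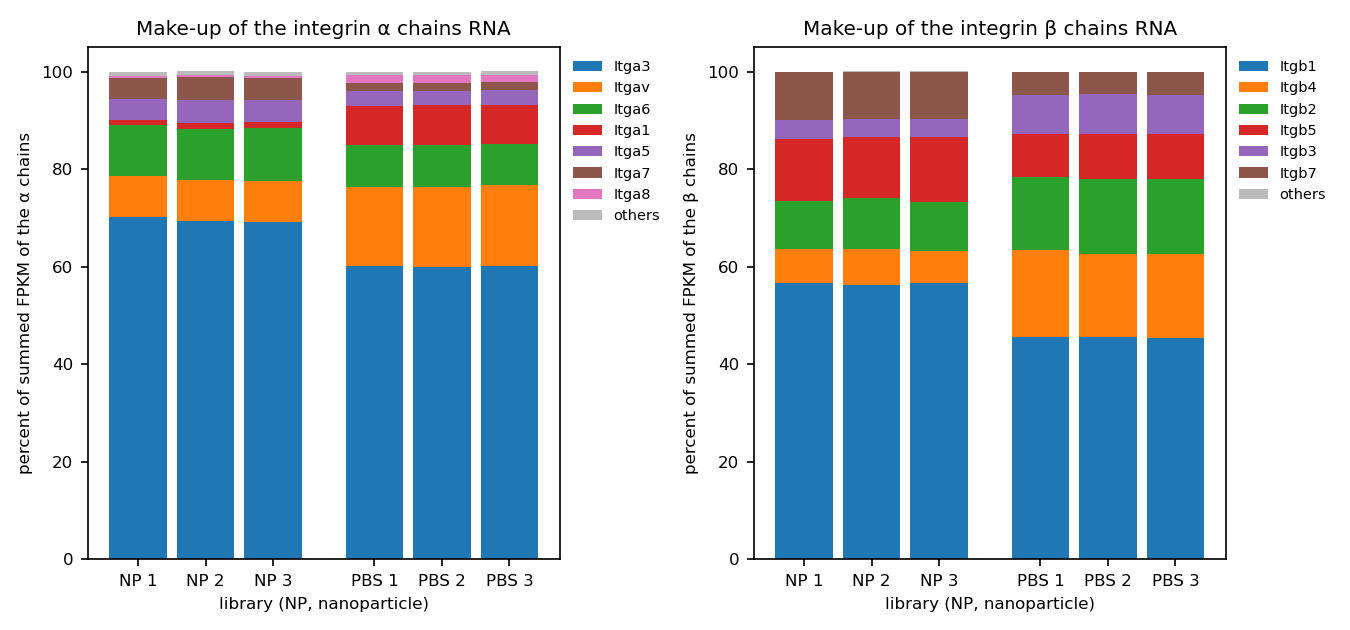
Stacked bars of each chain's percent of the summed FPKM of the α chains (left) and of the β chains (right) in each library, nanoparticle libraries left of PBS libraries. The Itga3 and Itgb1 blocks are larger with nanoparticles (69.6% and 56.5% on average) than with PBS (60.1% and 45.5%), and the Itga1, Itgav and Itgb4 blocks are smaller.

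The β-chain sum was lower by more than the α-chain sum. Summed β-chain FPKM was 251, 249 and 252 with nanoparticles, against 510, 496 and 498 with PBS, and summed α-chain FPKM was 312, 306 and 298 with nanoparticles, against 355, 352 and 353 with PBS. The ratio of the β sum to the α sum was 0.805, 0.813 and 0.845 in nanoparticle libraries and 1.43, 1.41 and 1.41 in PBS libraries (exact two-sided permutation test, p = 0.1, the smallest this design allows).

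Set against the 24 known heterodimers, 10 had both chains at 1 FPKM or more in both group means, and 7 of these use Itgb1. In 6 of the 10 the α chain's RNA was the scarcer one in both groups. Each pair was compared at the full level of both chains, although 7 pairs share Itgb1. The count therefore cannot tell which chain was limiting over all pairs. In 3 pairs the scarcer chain differed between groups. For α6β4, the hemidesmosome receptor, Itgb4 was scarcer with nanoparticles (17.4 FPKM, against 32.5 FPKM for Itga6) and Itga6 was scarcer with PBS (30.1 FPKM, against 86.9 FPKM for Itgb4). The log2 ratio of Itga6 to Itgb4 was 0.91, 0.79 and 1.00 with nanoparticles and -1.58, -1.48 and -1.53 with PBS. For α3β1, Itgb1 was scarcer with nanoparticles (142 FPKM, against 212 FPKM for Itga3), while with PBS both chains were close (Itga3 212 FPKM, Itgb1 228 FPKM). For αvβ5, Itgav was scarcer with nanoparticles (25.6 FPKM, against 32 FPKM for Itgb5) and Itgb5 with PBS (45.4 FPKM, against 57.9 FPKM for Itgav). These are RNA levels; the receptor proteins were not measured. Itgb7 averaged 24.2 FPKM with nanoparticles and 24 FPKM with PBS, while both of its α partners, Itga4 and Itgae, stayed at 0.262 FPKM or less on average in either group.

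Before span adjustment, the activators of integrins fell in all 3 tested cases, where 46% of all tested genes fell. Fermt2 (kindlin-2) stood at 27, 27 and 26.3 FPKM with nanoparticles, against 59.4, 60.6 and 60.9 FPKM with PBS, 2.25-fold lower with no overlap (log2 fold change -1.14, adjusted p = 4.93e-10, limma; -0.68 after span adjustment). Tln1, the main talin of non-muscle cells, measured 43.5, 43.4 and 41.4 FPKM with nanoparticles and 54.3, 54 and 53.7 FPKM with PBS (log2 fold change -0.33, adjusted p = 3.59e-06, limma). Tln2 was far lower in level, at 1.45, 1.64 and 1.47 FPKM with nanoparticles and 3.25, 3.33 and 3.1 FPKM with PBS (log2 fold change -0.75, but 0.62 after span adjustment). Its gene spans 343 kb, against 31.2 kb for Tln1. The log2 ratio of Tln1 to Tln2 was 4.91, 4.73 and 4.82 with nanoparticles and 4.06, 4.02 and 4.11 with PBS, without overlap (exact two-sided permutation test, p = 0.1, the smallest possible). Fermt1 (kindlin-1) was under 1 FPKM in every library.

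The ILK complex fell in all 3 of its members, where 46% of all tested genes fell. Parva (α-parvin), which binds actin, stood at 17.2, 17.7 and 16.9 FPKM with nanoparticles, against 49.3, 50.9 and 48.1 FPKM with PBS, 2.86-fold lower (adjusted p = 3.73e-10, limma). Lims1 (PINCH-1), the adaptor of the complex, stood at 9.48, 10.1 and 9.3 FPKM with nanoparticles, against 25, 25.2 and 23.9 FPKM with PBS, 2.57-fold lower (adjusted p = 3.31e-09, limma). After span adjustment the log2 fold changes were smaller, at -0.48 instead of -1.46 for Parva and -0.61 instead of -1.28 for Lims1. Ilk, the pseudokinase at its centre, measured 47.2, 49.8 and 51.4 FPKM with nanoparticles and 64.5, 69.2 and 65.7 FPKM with PBS. Its groups did not overlap (log2 fold change -0.42, adjusted p = 4.52e-06, limma; -0.81 after span adjustment). In the annotation 76.7% of the exonic bases of Ilk are shared with Taf10 on the other strand, which averaged 19.5 FPKM with nanoparticles and 11 FPKM with PBS. The sources used here do not give whether counting used strand, so the value of Ilk is uncertain.

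The signalling proteins went apart. Ptk2, which encodes focal adhesion kinase (FAK), stood at 18.6, 17.1 and 19.1 FPKM with nanoparticles, against 94.8, 95.9 and 90.6 FPKM with PBS. No library overlapped, and the mean was 5.13-fold lower (log2 fold change -2.30 with a standard error of 0.044, limma adjusted p = 9.53e-11; -1.16 after span adjustment). Its gene spans 218 kb at GRCm38 chromosome 15, 73205102 to 73423280. Src, the kinase that joins FAK at adhesions, measured 24.9, 26.6 and 25.7 FPKM with nanoparticles and 37.8, 37.2 and 39.1 FPKM with PBS (log2 fold change -0.55, adjusted p = 3.44e-07, limma; -0.26 after span adjustment).

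Bcar1, which encodes the docking protein p130Cas, a substrate of that kinase pair, rose. It stood at 47.6, 48.4 and 46.8 FPKM with nanoparticles, against 33, 32.5 and 32.3 FPKM with PBS, 1.46-fold higher with no overlap (log2 fold change 0.53 with a standard error of 0.030, limma adjusted p = 8.56e-08). Its change was 0.52 after span adjustment. Pxn (paxillin), the scaffold that carries FAK, measured 49.1, 50.3 and 50.2 FPKM with nanoparticles and 55.3, 54.1 and 54.4 FPKM with PBS. Its log2 fold change of -0.13 (adjusted p = 0.0016, limma) no longer passed with median-of-ratios scaling (-0.06, adjusted p = 0.0503, limma) and turned to 0.16 after span adjustment.

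Before span adjustment, 3 of the 4 links to actin fell (75%) and 1 rose (25%), by small amounts. Over all tested genes 46% fell and 40.5% rose. Vcl (vinculin), recruited to stretched talin, measured 39.9, 37.9 and 38 FPKM with nanoparticles and 50.5, 51.3 and 49.9 FPKM with PBS. Zyx (zyxin), which marks strained stress fibres, measured 48.5, 47.6 and 46.8 FPKM with nanoparticles and 63.9, 57.2 and 58.9 FPKM with PBS. Both fell, without overlap, by 0.38 and 0.33 on the log2 scale; after span adjustment they were 0.35 and -0.68. Vcl shares 25.5% of its exonic bases with Ap3m1 on the other strand, which averaged 14.6 FPKM with nanoparticles and 12.9 FPKM with PBS. The 2 non-muscle α-actinins, which cross-link actin, moved in opposite directions before span adjustment, after which both were called higher. Actn1 was 89.9, 90.8 and 85.3 FPKM with nanoparticles and 104, 105 and 106 FPKM with PBS, a fall of 0.24 on the log2 scale that turned to 0.38 after span adjustment. Actn4 was 103, 101 and 98.7 FPKM with nanoparticles and 89.2, 89.2 and 91.8 FPKM with PBS, a log2 fold change of 0.16 that was 0.63 after span adjustment, and was 0.01 and did not pass on the TPM scale. The log2 ratio of Actn1 to Actn4 within a library, which scaling of whole libraries does not alter, was -0.20, -0.16 and -0.21 with nanoparticles and 0.23, 0.23 and 0.20 with PBS (exact two-sided permutation test, p = 0.1, the smallest possible).

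**Figure D3:**
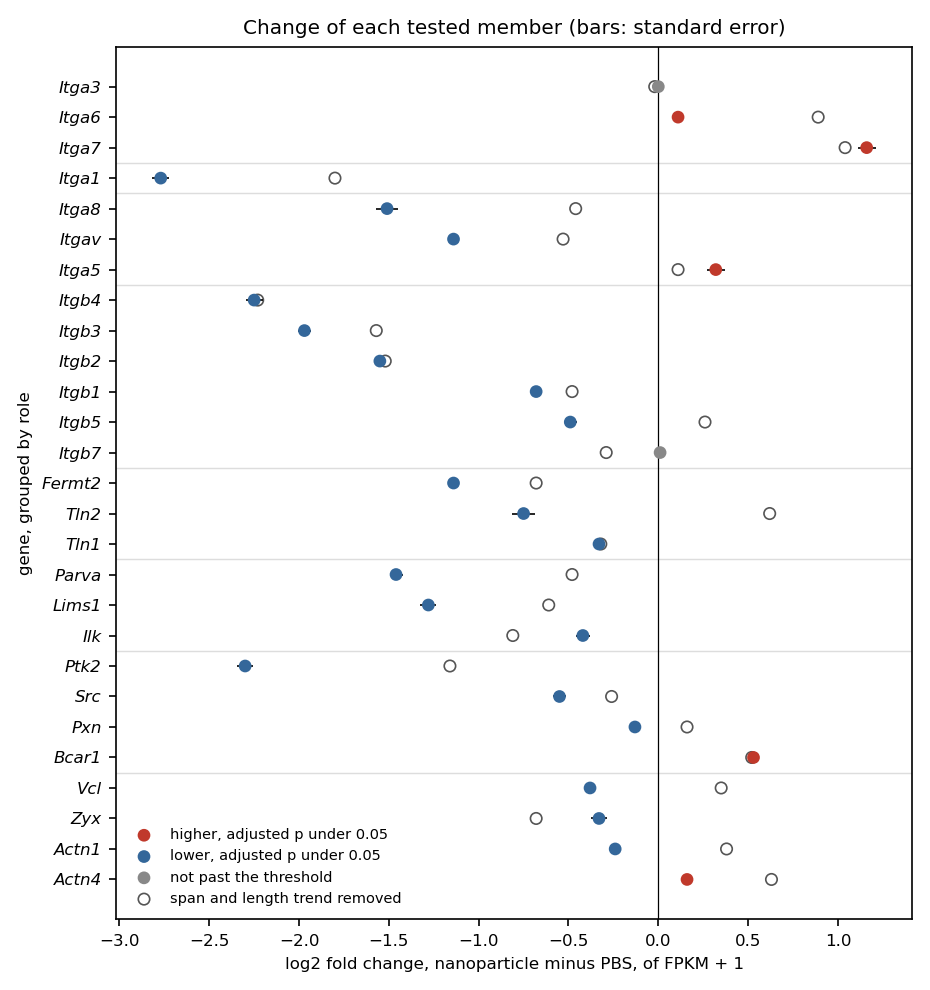
Log2 fold change of each tested gene (nanoparticle minus PBS, FPKM + 1; filled points, bars are standard errors), grouped by role, with open circles for the span-adjusted fit. Values run from -2.77 for Itga1 to 1.16 for Itga7, and the open circles of Tln2, Itgb5, Vcl, Actn1 and Pxn lie on the other side of 0.

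The genes of this module are long, and long genes were mostly lower in these cells. The median genomic span was 62.5 kb for the 27 tested genes and 23.2 kb for all tested genes. Across the 27 genes the log2 fold change had a Pearson's r of -0.45 and a Spearman correlation of -0.51 with span (log10 for r), beside -0.48 and -0.49 across 10836 tested genes; genes share libraries and are not independent replicates. The 9 genes with a span of 100 kb or more had a median log2 fold change of -1.28, beside -1.10 for all 1202 tested genes of that span. The 15 genes of 20 to 100 kb had a median of -0.33, beside -0.20 for 4739 genes. The 3 genes under 20 kb (Ilk, Zyx and Itgb7) had a median of -0.33, beside 0.29 for 4895 genes. After span adjustment, 9 of the 27 genes were called higher and 16 lower, beside 4071 higher and 5041 lower of 10836 genes so tested. Itgb4, Itgb2 and Bcar1, with spans of 33.7, 35.5 and 33.3 kb, then had log2 fold changes of -2.23, -1.52 and 0.52, near their first values. The adjustment itself was small at such spans, as for Tln1 (31.2 kb, -0.33 before and -0.32 after) and Itga3 (32.3 kb, 0.00 before and -0.02 after). The part of span in any of these changes was not tested beyond this.

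**Figure D4:**
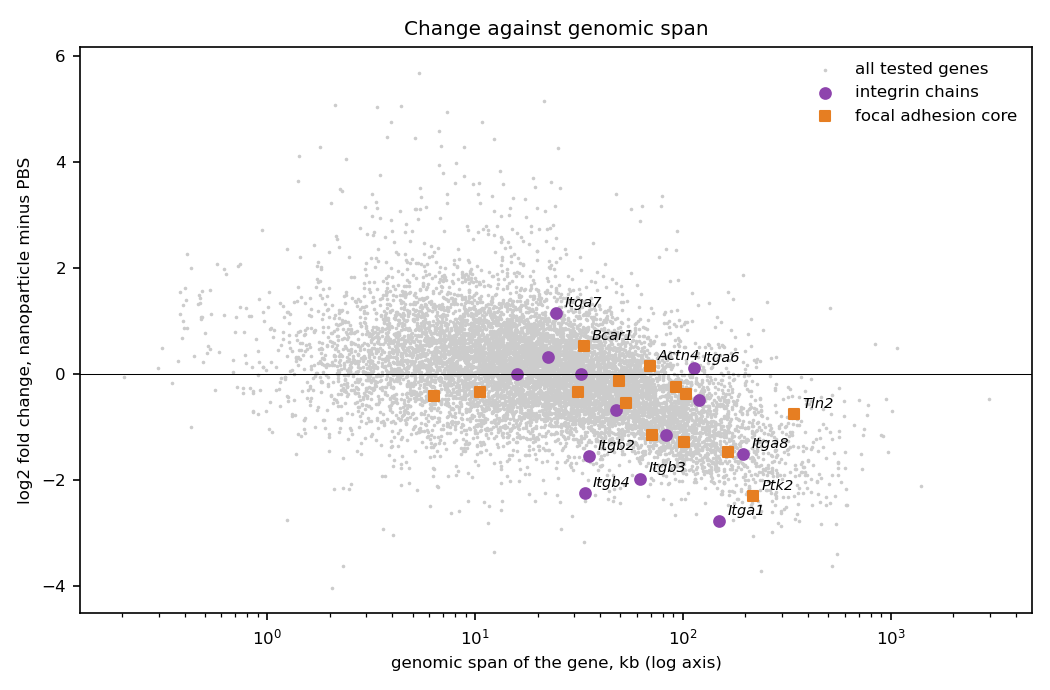
Log2 fold change (nanoparticle minus PBS) against genomic span in kb (log axis) for all tested genes (grey), integrin chains (circles) and the focal adhesion core (squares). The grey cloud slopes down (Spearman correlation -0.49), and Itgb4, Itgb2, Itgb3 and Itga1 lie near its lower edge for their span.

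The other 15 genes were below the level tested: 14 integrin chains and Fermt1. Their highest values were 0.861 FPKM with nanoparticles and 1.26 FPKM with PBS, both of Itga10. In 12 of the 15 the nanoparticle mean was above the PBS mean, a share near the 74% seen over all untested genes. Every nanoparticle library was above every PBS library for 10 of them, where 40.3% of all untested genes showed this, and every nanoparticle library was below for 3 (Itga10, Itga2 and Itga2b), as for 3.08% of all untested genes. Itga11, Itgb8 and Itgb2l were listed at 0 in all PBS libraries and averaged 0.143, 0.0252 and 0.0883 FPKM with nanoparticles. No read depth could be recovered for these values, and more genes were above 0 in the nanoparticle libraries as a whole; the part of this in the low values was not tested. Itga9, which binds tenascin, averaged 0.105 FPKM with nanoparticles and 0.00408 FPKM with PBS, and Itgb6, an epithelial chain, averaged 0.261 FPKM with nanoparticles and 0.0137 FPKM with PBS. Itga2b, the platelet chain, averaged 0.385 FPKM with nanoparticles and 0.618 FPKM with PBS. Of 10 platelet markers 9 were under 1 FPKM everywhere, and the list summed to 2.64 to 3.27 FPKM with nanoparticles and 1.63 to 1.69 FPKM with PBS. The only one tested, the chemokine gene Ppbp, averaged 2.05 ± 0.18 FPKM with nanoparticles and 1.2 ± 0.0462 FPKM with PBS (log2 fold change 0.47, adjusted p = 1.54e-04, limma), a call lost after span adjustment (-0.06).

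Extracellular ligands of integrins split evenly. Of 31 ligand genes 21 were tested, of which 10 rose, 10 fell and 1 did not pass. Both shares were near those of all tested genes, of which 40.5% rose and 46% fell. The median log2 fold change of the ligands was 0.05. Ccn1, a matricellular ligand of αv and α6 integrins, rose to 126 ± 1.42 FPKM with nanoparticles, against 19.3 ± 0.568 FPKM with PBS (log2 fold change 2.64, adjusted p = 7.20e-12, limma). Col4a2, a basement membrane collagen chain, fell to 39 ± 0.34 FPKM with nanoparticles, against 140 ± 0.893 FPKM with PBS (log2 fold change -1.82, adjusted p = 1.48e-11, limma; -0.96 after span adjustment). Fn1 (fibronectin), named after its values were seen as the single ligand that did not pass, averaged 146 ± 3.53 FPKM with nanoparticles and 141 ± 3 FPKM with PBS (adjusted p = 0.139, limma).

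Of 53 other focal adhesion genes 46 were tested, of which 32 fell, 11 rose and 3 did not pass. Their median log2 fold change was -0.58. Over all tested genes 46% fell and 40.5% rose. After span adjustment 24 of the 46 genes were called lower and 16 higher, beside 5041 lower and 4071 higher of 10836 genes so tested. Pdlim5, an actin-associated adaptor, averaged 8.29 ± 0.423 FPKM with nanoparticles and 34.7 ± 1.26 FPKM with PBS. Dock1, a RAC activator recruited through p130Cas and CRK, averaged 1.66 ± 0.0515 FPKM with nanoparticles and 10.1 ± 0.118 FPKM with PBS. Csk, the kinase that holds SRC inactive, averaged 14.3 ± 0.567 FPKM with nanoparticles and 47.3 ± 2 FPKM with PBS (log2 fold changes of -1.94 for Pdlim5, -2.07 for Dock1 and -1.66 for Csk). Pdlim5 and Dock1 span 156 and 503 kb, while Csk spans 27 kb, and after span adjustment the log2 fold changes were -0.99 for Pdlim5, -0.57 for Dock1 and -1.79 for Csk. Itgb1bp1 (ICAP-1), which binds the β1 tail and competes with talin, was chosen after its values were seen. It averaged 45.2 ± 2.91 FPKM with nanoparticles and 21 ± 2.62 FPKM with PBS (log2 fold change 1.07, adjusted p = 5.99e-06, limma).

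Of 36 genes of actin, actomyosin and its regulators 32 were tested, of which 17 fell, 12 rose and 3 did not pass. Their median log2 fold change was -0.21. Over all tested genes 46% fell and 40.5% rose. Diaph3, a formin that builds straight filaments, fell by 2.47 on the log2 scale and Rock2, a kinase that drives contraction, fell by 1.59; after span adjustment the log2 fold changes were -1.04 for Diaph3 and -0.89 for Rock2. Rhob, a stress-inducible small GTPase, rose to 90.7 ± 3.82 FPKM with nanoparticles, against 32 ± 0.81 FPKM with PBS (log2 fold change 1.47, adjusted p = 4.59e-10, limma). Of 10 hemidesmosome and tetraspanin genes 7 were tested; 6 fell and 1 rose, with a median log2 fold change of -0.52. Plec, which encodes plectin, the linker between the Itgb4 tail and keratin filaments, was the one that rose. It averaged 30.8 ± 1.15 FPKM with nanoparticles and 12.2 ± 0.164 FPKM with PBS. Cd82, a tetraspanin that associates with integrins, fell to 29.1 ± 0.56 FPKM with nanoparticles, against 74.2 ± 2.19 FPKM with PBS. Cd81, another tetraspanin, fell to 52.4 ± 2.04 FPKM with nanoparticles, against 79 ± 1.31 FPKM with PBS (log2 fold change -0.58, and -0.89 after span adjustment).

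**Figure D5:**
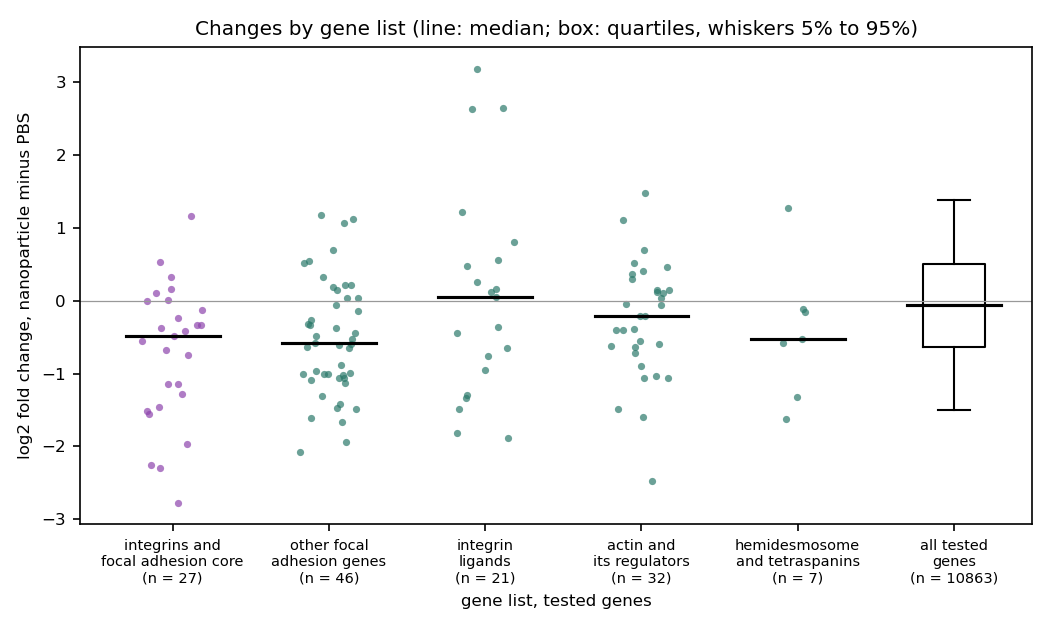
Log2 fold change (nanoparticle minus PBS) of the tested genes of 5 lists, 1 point per gene with a line at the median, beside a box for all tested genes. Medians were -0.49 for integrins and focal adhesion core, -0.58 for other focal adhesion genes, 0.05 for ligands, -0.21 for actin and its regulators and -0.52 for hemidesmosome and tetraspanin genes, against -0.06 for all tested genes.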

How the data were processed

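RNA enriched for mRNA, per the labels' protocols, was sequenced in 6 libraries of 4T1 cells, 3 per group. The authors deposited 1 table of FPKM values per gene, a unit its header does not name and the values fit. STAR, featureCounts, GRCm38 and mm10 are named in the submitters' processing notes, with no version or role; the sources used here do not give the annotation release or any use of strand. Steps worth 1 read were looked for among values under 0.2 FPKM. No 1% bin held more than 1.86% of their ratios, so reads could not be recovered, and with depth unknown there are no counting intervals.

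From the 22806 features, 701 without a gene identifier were left out (0.631% to 0.67% of summed FPKM). The 10863 genes that reached 1 FPKM in 3 or more libraries were fitted on log2(FPKM + 1) with limma 3.58.1 (R 4.3.3, trend and robust settings), nanoparticle minus PBS, two-sided, Benjamini-Hochberg over all of them. Such fold changes understate low genes. The fit was tested on simulated data. Shares and ratios were compared by exact permutation over libraries (scipy 1.17.1). Spans and exonic lengths came from GENCODE M21 (99.8% of tested genes matched). For span adjustment, each library's deviation from the mean of all 6 libraries was fitted with a smooth trend on both, which was subtracted. The fit did not use the group labels, but any difference between groups that runs with span or length is removed with it. Named genes are the 42 members and, of each list, the 3 tested genes with the smallest adjusted p; 1 gene that this rule names is not reported here. Fn1, Itgb1bp1 and the markers given as under 1 FPKM or at 0 (Epcam, Krt14, Cldn7, Esrp1, Ptprc, Nkg7, Col3a1, Dcn, Lum, Thy1, Kdr, Emcn) were named after their values were seen. Members and lists were chosen with earlier results of these data known, so their direction is no independent evidence.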

Additional observations from a re-analysis of the deposited data

How the results depend on the processing

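Of the 27 tested genes, 17 kept their direction and call in every alternative run: 15 that fell, among them Itga1, Ptk2, Itgb4 and Itgb3, and 2 that rose (Itga7 and Bcar1). Leaving out any 1 library, the 0.1 FPKM pseudocount and the 0.01 threshold left 5 genes higher and 20 lower. With no filter on low values 15 of the 42 genes were called higher and 23 lower. Over all genes 8445 were then called higher and 5227 lower of 20124 tested, where the first fit called 4395 and 4996 of 10863. The TPM scale moved the median log2 fold change of all genes by -0.15. On this scale 3 of the 27 genes were called higher and 22 lower, beside 3739 higher and 5727 lower of all 10863. The log2 fold changes of Itga6, Itga3 and Itgb7 were then -0.04, -0.15 and -0.14. After span adjustment, 9 were called higher and 16 lower, beside 4071 higher and 5041 lower of 10836 genes so tested. Of the 27 genes, 5 instead of 10 were then lower by at least 2-fold, a count added after the data were seen. Tln2, Actn1, Vcl, Itgb5 and Pxn turned to 0.62, 0.38, 0.35, 0.26 and 0.16. Itga3 and Itgb7 turned to -0.02 and -0.29, and Krt18 and Ppbp to -0.06 and -0.06. The cause of these turns was not tested. Leaving out 1 library at a time, the Itga3 log2 fold change ranged from -0.02 to 0.02 and the Itgb7 log2 fold change from -0.00333 to 0.02. Libraries that share a replicate number did not deviate together (correlations of -0.014, -0.043 and 0.041), and a fit with the replicate number as a block called 5 of the genes higher and 20 lower, and 4389 higher and 4982 lower over all genes. The ratio of Fermt1 to Fermt2 was not run, since Fermt1 was listed at 0 in 2 PBS libraries. Depth is unknown, which limits the 15 genes under the filter most.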
